A study of Mus musculus with 2 samples.

Results

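The genes described here are 47 mouse genes of electrical excitability: pore and auxiliary subunits of voltage-gated sodium, calcium and potassium channels, pacemaker and inward rectifier channels, ryanodine receptors, a calcium pump, a sodium-calcium exchanger and 3 connexins. They were chosen by symbol and looked up by Ensembl identifier, and 46 of the 47 had a locus among 34624 loci in all. The exception was Kcnj11, the pore subunit of a potassium channel closed by ATP, which had no row under its identifier and is not analysed here. The study sequenced total RNA of whole, untreated mouse embryos from CBA/Ca×C57Bl/10 crosses at embryonic day 10.5, when the heart already beats. It held 1 group with 2 replicates, and the labels leave unsaid how many embryos went into each. There is thus no comparison between conditions. What follows compares levels between genes and between the replicates, and with 2 values on each side the smallest two-sided exact permutation p would be 0.333, so no p is given.

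Excitable cells fire when voltage-gated sodium or calcium channels open and let positive ions in, and they return to rest when potassium channels open. In heart cells the L-type calcium current triggers calcium release through ryanodine receptors, a pump of the sarcoplasmic reticulum and a sodium-calcium exchanger then clear that calcium, HCN channels help set the pace, and connexins pass the signal from cell to cell. The same families serve neurons and skeletal muscle, and several members, connexins above all, are also made by cells that fire no action potentials.

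Levels are the authors' RPKM, reads scaled to transcript length and library size, which are per length and so were set side by side between genes. That comparison rests on the authors' lengths, which differed between the libraries for some loci with several transcripts, as given below. Replicate 2 was sequenced 6.42 times as deeply by its summed counts (117522171, with 18318181 in replicate 1), so low values of replicate 1 carry more counting error. Intervals given for single values are exact 95% Poisson intervals and cover counting error only. In bulk RNA of a whole embryo, few cells with much of a transcript and many cells with little of it cannot be told apart. Markers of the tissues that use these channels were present: 9 of 9 cardiomyocyte, 6 of 6 early neuron, 6 of 7 mature neuron, 6 of 7 skeletal muscle, 6 of 6 sinoatrial regulator, 7 of 7 smooth muscle and pericyte and 5 of 5 endothelial loci reached 1 RPKM in both replicates. The exceptions were Ckm, of mature muscle, and Slc17a7, of mature glutamatergic neurons, both under 0.3 RPKM. Over all loci the share was 49.4%. Some marker loci were joined with other genes, among them 3 of the 6 sinoatrial and 2 of the 9 cardiomyocyte loci. Several stood near the minimum, such as Nkx2-5 (1.37 and 1.17 RPKM) and Myod1 (1.45 and 1.22).

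At 1 RPKM or more in both replicates stood 36 of the 46 measured members (78.3%), against 49.4% of all loci and 65.0% of the 19311 protein-coding loci. The members were picked with these data in view, so their higher share is a description only. Of the 46 members, 11 lay in loci that the authors joined with other genes, whose value cannot be given to 1 gene. Among the 35 members with a locus of their own, 26 reached the minimum, against 62.4% of protein-coding loci with 1 gene identifier. The median over the 46 members was 4.92 RPKM in replicate 1 and 3.09 in replicate 2, against 8.35 and 5.50 for protein-coding loci and 1.76 and 1.00 for all loci. Most members were thus detected but low, and the group as a whole sat under the protein-coding median. By their mean level the members ran between percentiles 18.1 and 97.4 of protein-coding loci, with a median percentile of 44.8. Of the 46 members, 11 reached 10 RPKM in both replicates, 5 reached 50 and 4 reached 100. Among the 35 with a locus of their own these counts were 7, 3 and 3. Of protein-coding loci 42.2%, 16.4% and 7.68% did so. The members' share was lower at 10 and 50 RPKM but not at 100.

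**Figure D1:**
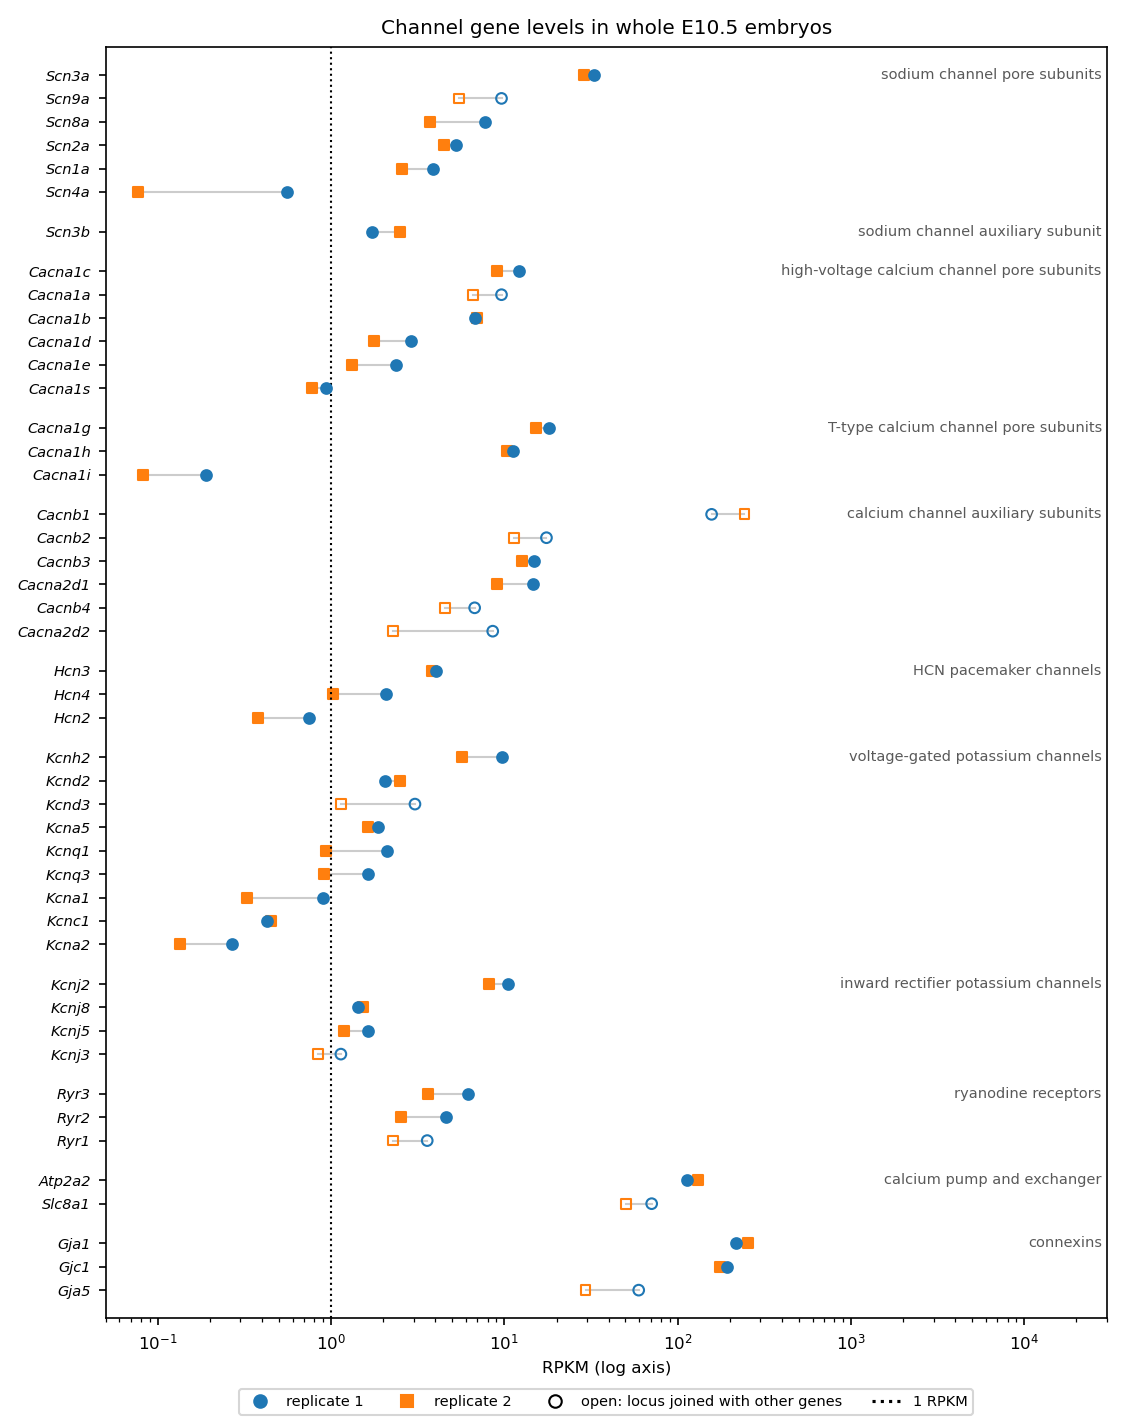
RPKM on a log axis of the 46 measured channel genes, by role and then by mean level. Circles are replicate 1, squares replicate 2, open symbols loci joined with other genes, and the dotted line is 1 RPKM. Gja1, Gjc1 and Atp2a2 stood above 100 RPKM with a locus of their own, and Scn4a, Kcna2 and Cacna1i were at the low end.

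The sequence around the start is shown for 4 members picked, after their values were seen, from the high and the low side of this range. The windows are RefSeq promoter windows of 300 bases on build GRCm38.p6, from 250 bases before to 50 after a transcript start, printed 5′ to 3′ along the gene with each CpG in capitals. Gja1 and Slc8a1 are shown as high members with few CpG, and Kcnc1 and Kcna2 as members under 1 RPKM with many.
Gja1, chr10:56377050-56377349, plus strand: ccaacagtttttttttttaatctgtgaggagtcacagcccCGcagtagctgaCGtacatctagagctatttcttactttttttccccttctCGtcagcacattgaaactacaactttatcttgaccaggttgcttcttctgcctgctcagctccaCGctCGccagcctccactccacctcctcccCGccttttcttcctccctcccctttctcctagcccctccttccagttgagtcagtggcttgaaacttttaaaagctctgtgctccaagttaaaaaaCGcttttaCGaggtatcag
Slc8a1, chr17:81738338-81738637, minus strand: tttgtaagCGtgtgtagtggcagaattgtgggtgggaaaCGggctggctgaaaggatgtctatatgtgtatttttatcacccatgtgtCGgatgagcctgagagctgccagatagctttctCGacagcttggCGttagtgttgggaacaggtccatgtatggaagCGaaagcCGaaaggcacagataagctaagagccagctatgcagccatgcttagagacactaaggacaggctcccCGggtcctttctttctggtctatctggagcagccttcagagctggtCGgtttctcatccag
Kcnc1, chr7:46396218-46396517, plus strand: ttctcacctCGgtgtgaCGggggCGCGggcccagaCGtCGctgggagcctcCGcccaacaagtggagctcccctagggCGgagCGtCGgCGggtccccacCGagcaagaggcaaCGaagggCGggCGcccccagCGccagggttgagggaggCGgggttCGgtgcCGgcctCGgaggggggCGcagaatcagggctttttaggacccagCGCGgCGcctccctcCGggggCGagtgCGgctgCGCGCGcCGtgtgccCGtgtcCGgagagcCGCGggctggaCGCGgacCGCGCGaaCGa
Kcna2, chr3:107101317-107101616, plus strand: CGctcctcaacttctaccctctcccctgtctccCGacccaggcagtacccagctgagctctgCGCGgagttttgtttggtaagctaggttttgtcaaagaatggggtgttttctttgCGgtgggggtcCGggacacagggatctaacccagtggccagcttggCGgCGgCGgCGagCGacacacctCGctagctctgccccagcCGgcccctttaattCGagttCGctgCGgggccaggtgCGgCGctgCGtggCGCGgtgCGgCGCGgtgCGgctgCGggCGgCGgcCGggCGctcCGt
The window of Gja1 held 8 CpG and that of Slc8a1 held 9, with an observed-over-expected CpG ratio of 0.54 and 0.48. The window of Kcnc1 held 41 and that of Kcna2 held 31, with ratios of 1.00 and 0.93. The order of their levels was set by that choice. Gja1 had 218 and 256 RPKM in the replicates, and Slc8a1, in a joined locus, 70.8 and 50.2. Kcnc1 had 0.429 and 0.448 RPKM, and Kcna2 0.268 and 0.135.

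Across the 34 measured members with a window in the table, taking for each gene its window with the highest ratio, 17 had a ratio above 0.6 and 17 did not. Of those at 1 RPKM or more in both replicates, 13 of 27 (48.1%) were above 0.6, against 75.5% of the 8320 detected protein-coding genes with a locus of their own and a window. Of those under the minimum, 4 of 7 (57.1%) were above it: Hcn2, Kcnc1, Kcna2 and Cacna1i. The share among the 4821 such protein-coding genes under the minimum was 13.8%. Those backgrounds hold no joined loci, whereas 9 of the 27 detected members with a window lie in one, and among members with a locus of their own 8 of 18 detected (44.4%) and 4 of 6 under the minimum (66.7%) were above 0.6. These shares are a description of the window, chosen without regard to which start was used in the embryo. They leave out measured members without a window, among them Gjc1, Atp2a2, Scn3a and Cacna1g, at means of 184, 122, 30.9 and 16.7 RPKM. The shares also depend on the cut of 0.6, and no other cut was run. Detected members just under it were Ryr2 (0.57), Kcnh2 (0.56), Gja1 (0.54), Kcnj2 (0.54) and Scn2a (0.53). The nearest members above it were Hcn2 (0.67) and Kcnd2 (0.74). The letters TATAAA, on either strand, were in a window of 2 of the 34 members, Scn2a and Cacna1d. Of all 32851 windows 13.6% held them. That share counts windows and not genes, and a gene can have several, so the values are not compared.

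**Figure D2:**
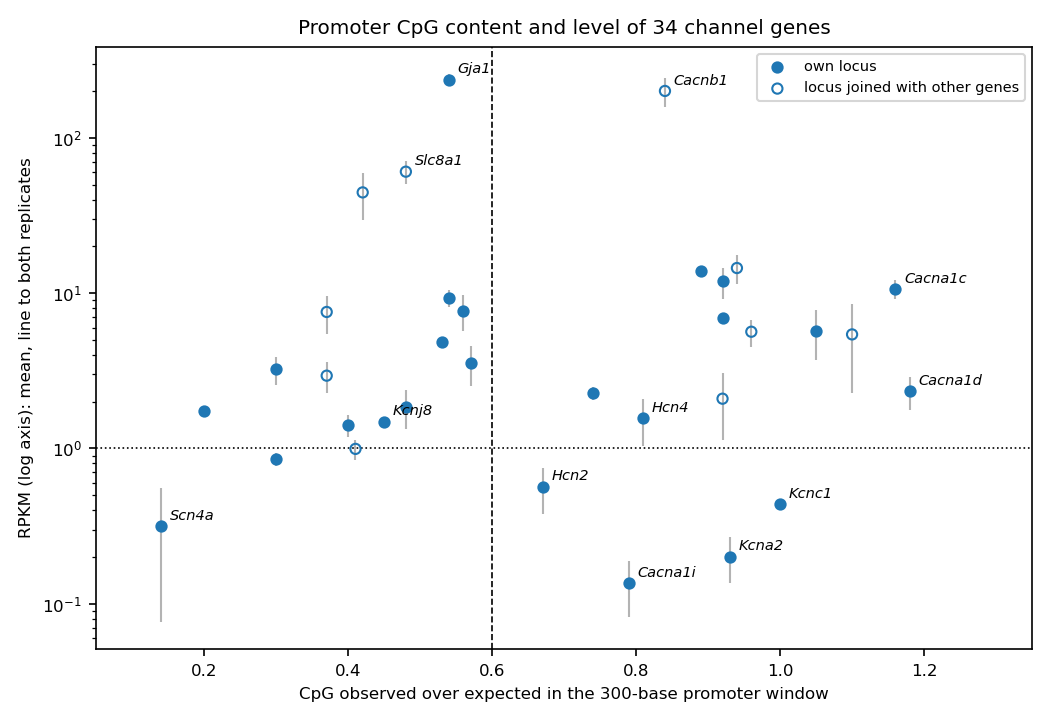
CpG observed-over-expected ratio of the promoter window (horizontal) against RPKM on a log axis (vertical) for 34 members. Points are means of both replicates, vertical lines join the replicates, open points are joined loci, the dashed line is a ratio of 0.6 and the dotted line 1 RPKM. Low members lie on both sides of the dashed line, with Kcna2 and Kcnc1 right of it. Gja1 lies left of the line. The highest point right of the line is Cacnb1, in the locus joined with Rpl19. Among plotted members with a locus of their own, the highest there is Cacnb3 at a mean of 13.8 RPKM. Gjc1, Atp2a2, Scn3a and Cacna1g, with their own loci and higher means, had no window and are not plotted.

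Connexins were the most abundant role group of the members. Gja1 encodes connexin 43, the main gap junction protein of working ventricle and of many other tissues, and had 218 and 256 RPKM in replicates 1 and 2, from 4088 and 26433 reads. Gjc1 encodes connexin 45, the connexin of the early heart and of nodal tissue, and stood at 192 and 176 RPKM. Gja1 over Gjc1 was 0.36 ± 0.25 on the log2(RPKM + 1) scale (SD, n = 2), within the replicate spread of 1.45. That spread is 2 SD of the log2 difference between replicates over the 500 loci nearest in level, taken for whichever gene of the pair had the wider one. Gja5 encodes connexin 40 of the atria and the fast conduction system. Its locus had 59.6 and 29.4 RPKM but was joined with Gpr89, Pdzk1 and Cd160, so these values cannot be given to Gja5 itself. Gja1 exceeded that locus by 2.47 ± 0.87 and Gjc1 exceeded it by 2.11 ± 0.62, both beyond the replicate spread of 1.22 and 1.45. Of the 15 other connexins listed, 4 reached 1 RPKM in both replicates, led by Gjb2 at 10.4 and 6.70 RPKM, Gja4 at 5.12 and 6.30, and Gjb6 at 2.10 and 2.52.

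Transcripts of calcium clearance were abundant as well. Atp2a2 encodes SERCA2, the calcium pump of the sarcoplasmic reticulum in heart and of the endoplasmic reticulum elsewhere, and had 113 and 131 RPKM from 5653 and 37067 reads, the most reads of any member. Slc8a1 encodes NCX1, the sodium-calcium exchanger of the heart cell membrane, and had 70.8 and 50.2 RPKM in a locus joined with the predicted gene Gm11096. Atp2a2 over Slc8a1 was 1.02 ± 0.49 on the log2 scale, within the spread of 1.14, although replicate 2 alone, at 1.37, was past it. The release channels had lower values. Ryr3, the ryanodine receptor of brain and immature muscle, had 6.15 and 3.61 RPKM. Ryr2, the cardiac release channel, had 4.59 and 2.52 RPKM, and Ryr1, the skeletal muscle one, had 3.59 and 2.29 in a joined locus. The 3 receptors lay close together: Ryr2 over Ryr1 was 0.19 ± 0.13, Ryr2 over Ryr3 was -0.37 ± 0.02 and Ryr1 over Ryr3 was -0.56 ± 0.11, all within the spread of 1.19 to 1.30. These receptors are very long transcripts, so read counts were high (Ryr2 had 894 and 3004 reads) where levels per length were low.

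The rest of the calcium handling list was nearly complete, with 17 of 18 loci at 1 RPKM or more in both replicates. It was led by Asph (165 and 137 RPKM, joined), which encodes an aspartate hydroxylase and the calcium store protein junctin from the same gene. Pln, the phospholamban gene whose product restrains SERCA2, followed at 49.6 and 25.9 RPKM in a joined locus, and Fkbp1a, a ryanodine receptor binding protein, at 43.2 and 29.3. Sln, a regulator of the pump in atrial and skeletal muscle, was the exception at 0.305 and 0.376 RPKM, from 1 and 7 reads.

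Among sodium channel pore subunits Scn3a stood out. It encodes Nav1.3, the sodium channel best known from the embryonic nervous system, and had 32.9 and 28.9 RPKM. The other pore subunits at 1 RPKM or more were Scn9a, of sensory neurons (9.63 and 5.49, joined with Gm13629), and Scn8a, Scn2a and Scn1a, of central neurons. Scn8a had 7.76 and 3.72 RPKM, Scn2a had 5.25 and 4.50, and Scn1a had 3.90 and 2.57. Scn3a exceeded Scn2a by 2.44 ± 0.01 and Scn1a by 2.93 ± 0.20 on the log2 scale, both beyond the spread of 1.14, and the raw ratio was 6.26 and 6.43 to Scn2a and 8.43 and 11.3 to Scn1a. Scn8a over Scn2a changed sign between replicates, at 0.49 and -0.22. Scn4a, the skeletal muscle sodium channel, was the low end of the group, with 0.554 RPKM from 19 reads in replicate 1 and 0.0766 from 33 reads in replicate 2, summed over 2 rows. In CPM, which uses no length and scales the libraries by summed counts, its replicate 1 value was 3.69 times that of replicate 2. In RPKM it was 7.22 times.

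Scn3b, an auxiliary subunit that modulates sodium channel gating, had 1.72 RPKM (95% interval 1.13 to 2.50, from 27 reads) and 2.51 (2.18 to 2.87, from 209 reads). Of the 8 other sodium channel genes listed, 2 reached the minimum in both replicates: Scn2b, another auxiliary subunit, at 14.1 and 10.3 RPKM, and the leak channel Nalcn at 1.89 and 1.03. Scn10a, of sensory neurons, was lowest at 0.160 and 0.111.

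Of the calcium channel pores, Cacna1g had the highest value in both replicates. It encodes Cav3.1, a T-type, or low-voltage, channel of pacemaker cells and thalamic neurons, and had 18.2 and 15.2 RPKM. Cacna1h encodes Cav3.2, the T-type channel described in embryonic heart and sensory neurons, and had 11.2 and 10.3. Cacna1h over Cacna1g was -0.58 ± 0.10, within the spread of 1.11. The third T-type gene, Cacna1i, which is mostly a brain gene, had 0.189 and 0.0823 RPKM from 15 and 38 reads, the lowest mean level of all 46 members.

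Of the high-voltage channels, Cacna1c, the L-type pore Cav1.2 of heart and smooth muscle, had 12.1 and 9.13 RPKM, above Cacna1h in replicate 1 and below it in replicate 2. Cacna1d, the L-type pore Cav1.3 of nodal and endocrine cells, had 2.90 and 1.78, and Cacna1s, the L-type pore of skeletal muscle, had 0.934 and 0.773. Cacna1c exceeded Cacna1d by 1.81 ± 0.08 and Cacna1s by 2.64 ± 0.17, both beyond the spread of 1.12. The pores of presynaptic channels were in between: Cacna1a (P/Q-type) had 9.63 and 6.57 RPKM in a joined locus and Cacna1b (N-type) had 6.79 and 6.99. Their difference was 0.45 in replicate 1 and -0.08 in replicate 2, with no common sign. With the length of replicate 1 in both, an alternative added after seeing the data, replicate 2 had 6.06 RPKM for Cacna1a and 3.87 for Cacna1b. Cacna1a was then higher in both replicates, with a mean difference of 0.49, within the spread of 1.08. Cacna1e, the R-type pore, had 2.38 and 1.33 RPKM.

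All 6 auxiliary calcium channel subunits reached 1 RPKM in both replicates, but only 2 had a locus of their own. The highest value, 157 and 243 RPKM for Cacnb1, belongs to a locus shared with the ribosomal protein gene Rpl19 and cannot be read as the level of Cacnb1, the beta subunit of skeletal muscle. Cacnb2, the main cardiac beta subunit, had 17.5 and 11.4 RPKM in a joined locus, and Cacnb3, with its own locus, had 14.9 and 12.7. Cacnb3 over Cacnb2 was -0.03 ± 0.26, with opposite signs in the replicates. Cacnb4, a neuronal beta subunit, had 6.74 and 4.53 in a joined locus, and Cacnb3 exceeded it by 1.18 ± 0.19, just past the spread of 1.14; replicate 1 alone (1.04) was not past it.

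The alpha2-delta subunits bring the pore to the membrane. Cacna2d1, the form of heart and skeletal muscle, had 14.6 and 9.12 RPKM, and Cacna2d2, a form known from the cerebellum, had 8.57 and 2.28 in a locus joined with Gm17141. Cacna2d1 exceeded Cacna2d2 by 1.17 ± 0.65, past the spread of 1.09, with 0.70 in replicate 1 and 1.63 in replicate 2, so the call rests on replicate 2. Of the 11 other calcium channel genes listed, 3 reached the minimum: Cacng4 (8.01 and 6.33), Cacng7 (7.53 and 3.20), both regulators of the gamma family, and Cacna2d3 (2.31 and 1.77). Cacna2d4, a retinal form, was lowest at 0.0215 and 0.0341 RPKM, from 1 and 9 reads.

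**Figure D3:**
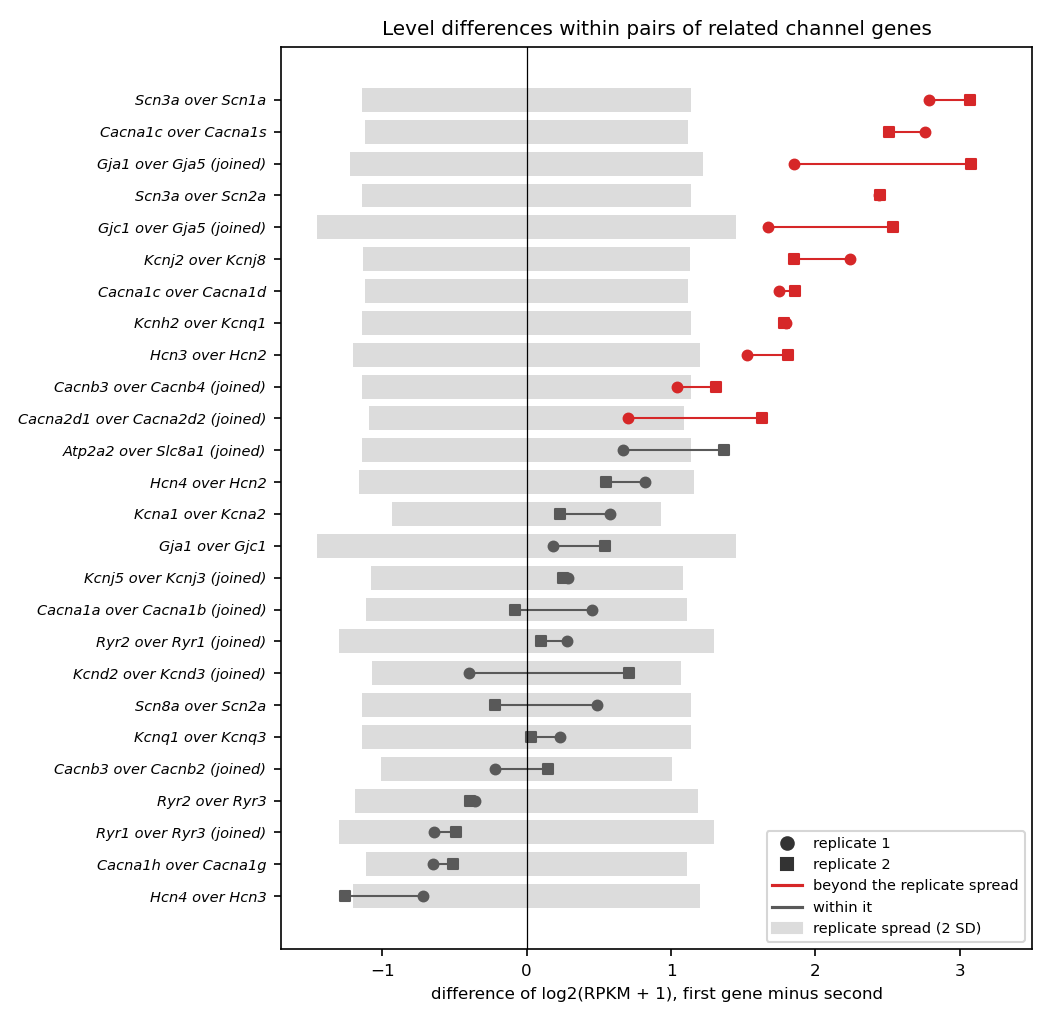
Difference of log2(RPKM + 1) between both genes of 26 pairs, the gene named first minus the second, in replicate 1 (circles) and replicate 2 (squares). Grey bars span the replicate spread of 2 SD on either side of 0, and red marks the 11 pairs whose replicates had the same sign and a mean past it. Scn3a over Scn1a, at 2.79 and 3.07, was the widest of them by its mean.

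Pacemaker channels of the HCN family pass a mixed inward current at negative voltage. Hcn4, the leading form of the sinoatrial node, had 2.08 RPKM (95% interval 1.70 to 2.53, from 103 reads) in replicate 1 and 1.03 (0.913 to 1.15, from 289 reads) in replicate 2, next to the minimum. Hcn3 had more, with 4.06 and 3.84 RPKM, and Hcn2 had less, with 0.750 and 0.381. Only Hcn3 over Hcn2 was beyond the spread, at 1.67 ± 0.20 against 1.20. Hcn4 over Hcn3 was -0.99 ± 0.38 and Hcn4 over Hcn2 was 0.69 ± 0.19, both within it, although replicate 2 alone put Hcn4 over Hcn3 at -1.26, past the spread of 1.20. Regulators known from the sinoatrial region had higher values than Hcn4 in the same libraries, among them Tbx18 at 13.6 and 11.4 RPKM and Isl1 at 30.8 and 16.9, though limb, somite and nervous tissue express them too.

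Voltage-gated potassium channels had the lowest share of detected loci among the role groups, 4 of 9. Kcnh2 encodes ERG, the pore of the rapid delayed rectifier that ends the cardiac action potential, and had 9.74 and 5.68 RPKM. Kcnq1, the pore of the slow delayed rectifier, had 2.09 and 0.940 RPKM and missed the minimum in replicate 2, where its interval was 0.778 to 1.12. Kcnh2 exceeded Kcnq1 by 1.79 ± 0.01, beyond the spread of 1.14. Kcnq3, a neuronal channel of the M-current, had 1.64 and 0.905 RPKM, and Kcnq1 over Kcnq3 was 0.13 ± 0.14. The antisense partner of Kcnq1 is not analysed here, and as no source says whether strand was used, reads of either strand cannot be told apart.

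Transient outward channels had low levels with opposite order in the replicates. Kcnd2 had 2.06 and 2.50 RPKM, and Kcnd3 had 3.05 and 1.14 in a locus joined with its antisense gene Kcnd3os, a difference of -0.40 in replicate 1 and 0.71 in replicate 2. Kcna5, which carries an atrial repolarizing current, had 1.86 and 1.63 RPKM. The neuronal Shaker-type members Kcna1 and Kcna2 were under 1 RPKM in both replicates, with Kcna1 at 0.900 and 0.328 and Kcna2 at 0.268 and 0.135, from 8 and 23 reads. Other genes of that family, named here after their values were seen, reached the minimum: Kcna6 had 5.82 and 4.18 RPKM, and Kcna3 had 3.55 and 2.15. Kcna1 over Kcna2 was 0.40 ± 0.25, within the spread of 0.93. Kcnc1, a channel of fast-spiking neurons, had 0.429 and 0.448 RPKM from 19 and 68 reads.

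Among the 32 other voltage-gated potassium and HCN genes listed, 9 reached the minimum in both replicates, led by Kcnq5 (15.8 and 8.31 RPKM, joined). Kcna10 was lowest, at 0 reads in replicate 1 and 2 reads in replicate 2. Kcnh6, a relative of Kcnh2 named here after its values were seen, had 1.11 RPKM from 49 reads in replicate 1 and 5.78 from 1230 reads in replicate 2. Of 13 auxiliary genes, 7 reached the minimum, led by Kcnab1 (7.97 and 5.04), Kcnip4 (6.71 and 3.72) and Kcne3 (5.15 and 2.30). Abcc8, the pancreatic partner of Kcnj11, was lowest at 0.415 and 0.193.

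Inward rectifiers hold the resting potential. Kcnj2 encodes Kir2.1, the main pore of that current in heart and skeletal muscle, and had 10.5 and 8.15 RPKM. Kcnj8 encodes Kir6.1, the ATP-sensitive channel of pericytes and vascular smooth muscle, and had 1.44 (95% interval 0.970 to 2.05, from 30 reads) and 1.53 (1.32 to 1.77, from 182 reads). Kcnj2 exceeded Kcnj8 by 2.05 ± 0.27, beyond the spread of 1.13. The atrial acetylcholine-gated channel is built from the products of Kcnj5 and Kcnj3. Kcnj5 had 1.63 and 1.19 RPKM and Kcnj3, in a joined locus, 1.14 and 0.842, a difference of 0.27 ± 0.03 within the spread of 1.08. Of 10 other inward rectifier genes, 2 reached the minimum. Kcnj13 had 285 and 260.2 RPKM in a locus joined with Gigyf2 and cannot be read on its own, and Kcnj12 had 2.11 and 1.57. Kcnj15 (1.25 and 0.492) came next, and Kcnj1 was lowest, with 0 and 4 reads.

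Taking the minimum as an edge, 3 members reached 1 RPKM in replicate 1 alone (Kcnq1, Kcnq3 and Kcnj3), none in replicate 2 alone, and 7 were under it in both (Cacna1s, Kcna1, Hcn2, Kcnc1, Scn4a, Kcna2 and Cacna1i). Hcn4 (1.03 in replicate 2) and Kcnd3 (1.14) were just inside it, Kcnq1 (0.940) and Kcnq3 (0.905) just outside. The share of all loci that reached 1 RPKM in replicate 1 alone is not given here. The median over all loci was also lower in replicate 2, at 1.00 RPKM against 1.76, so that order is not particular to the members. No member had 0 reads in either library, and the fewest were the 8 and 23 reads of Kcna2. Of 107 other channel and calcium handling genes listed, all with a locus, 44 (41.1%) were detected by the same minimum, and their median was 1.07 RPKM in replicate 1 and 0.547 in replicate 2. Their share was under the 49.4% of all loci, and the share of the 46 members (78.3%) above it; the members had been picked with these data in view, so that order is a description.

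**Figure D4:**
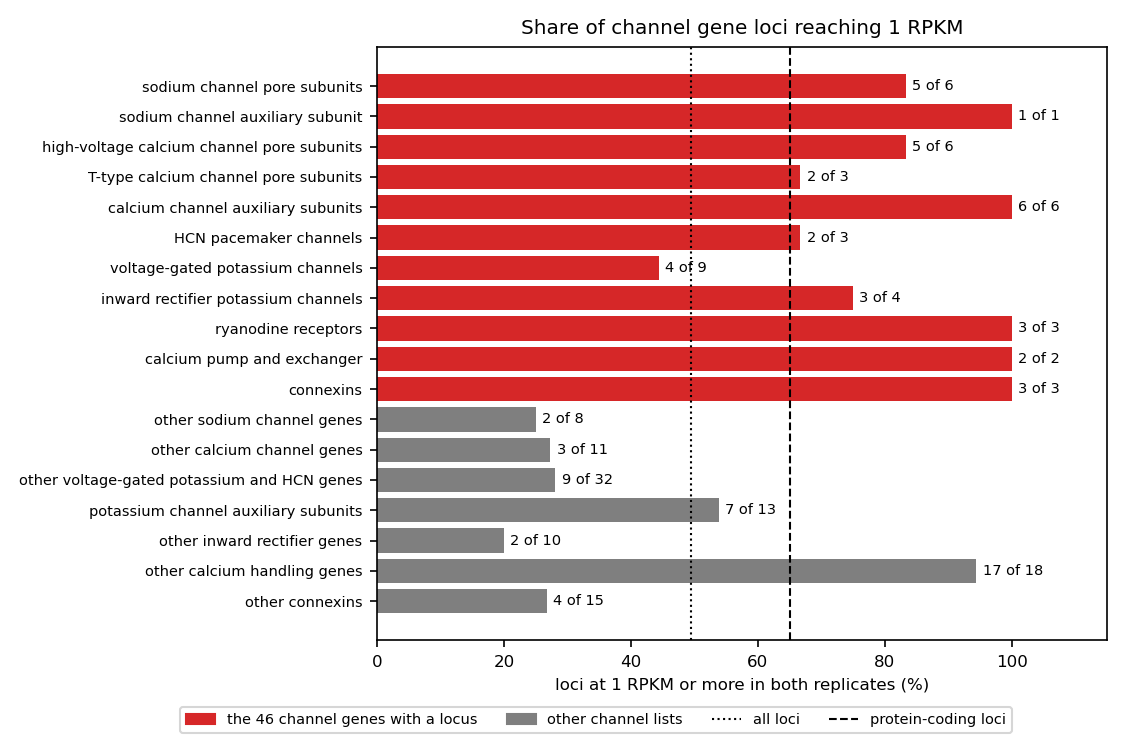
Share of loci at 1 RPKM or more in both replicates for the role groups of the 46 measured members (red) and for the other channel lists (grey), with the counts beside each bar. The dotted line is all loci (49.4%) and the dashed line protein-coding loci (65.0%). Voltage-gated potassium channels, at 4 of 9, are the red bar left of both lines, and calcium handling, at 17 of 18, is the grey bar furthest right.

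Most members were lower in replicate 2, as were most loci. Over the 18335 loci with a mean of 1 RPKM or more, replicate 2 minus replicate 1 had a median of -0.38 on the log2(RPKM + 1) scale, and 79.1% were lower in replicate 2. Over the 38 members with such a mean the median was -0.46, and 31 (81.6%) were lower in replicate 2. The 7 that were higher there were Gja1 (0.23), Cacnb1 (0.63), Atp2a2 (0.20), Kcnd2 (0.19), Scn3b (0.37), Kcnj8 (0.06) and Cacna1b (0.04). Past 2-fold on this scale lay 1 member, Cacna2d2 at -1.55, against 11.8% of all such loci (8.74% lower and 3.03% higher in replicate 2). Relative to the median shift 2 did, Cacna2d2 (-1.16) and Cacnb1 (1.01), against 8.84%. That shift was the same at all levels, but the median difference varied with level. It was -0.57 for loci near 5.32 RPKM, 0.08 near 160.3 and 0.58 near 382. Most loci near 160.3 RPKM lay between -0.467 and 1.064. Cacnb1, at a mean of 200.2 RPKM, lay inside those limits before the shift, as did Gja1 and Atp2a2. Passing 2-fold after the shift thus does not set Cacnb1 apart from loci of its level.

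The transcript length behind the authors' RPKM also differed between the libraries. In loci with 1 transcript the reads per RPKM had a constant ratio of 5.68 between replicates, within 1 percent wherever replicate 1 had over 200 reads. In 35 of the 46 members the locus held several transcripts, and in 15 of these the implied length in replicate 2 differed by more than 10 percent from that in replicate 1. It was 1.76 times as long for Cacna2d2, 1.65 for Kcnd3 and 1.48 for Cacna2d1, and 0.60 for Kcnc1 and 0.55 for Cacna1b. Scn4a is among the 15 with a ratio of 2.21. Its 2 transcripts lie in 2 summed rows, so that ratio can reflect which row the reads fell in. It is not read as a length. In CPM, which uses no length, Cacna2d2 had 8.63 and 3.57, a ratio of 2.42 in place of 3.76 in RPKM. That change is not all length, because CPM scales the libraries by summed counts. Their ratio was 6.42, where the RPKM gave 5.68 in loci with 1 transcript. Atp2a2, with an implied length ratio of 1.00, had a replicate 1 over replicate 2 ratio of 0.867 in RPKM and 0.978 in CPM. Cacna1b had 20.5 and 10.3 CPM but 6.79 and 6.99 RPKM. Scn8a, whose lengths agreed (0.99), was lower in replicate 2 on both scales, with 32.7 and 13.7 CPM. For Atp2a2, Kcnj2, Kcnj5, Kcnj8, Hcn2 and Hcn4 the implied length was the same in both libraries (1.00). Some members not named here also had a ratio of 1.00, among them Cacnb3, Kcnd2 and Kcna5. For members whose implied length differed, how far length sets their differences was not tested beyond the alternatives given in the closing section.

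**Figure D5:**
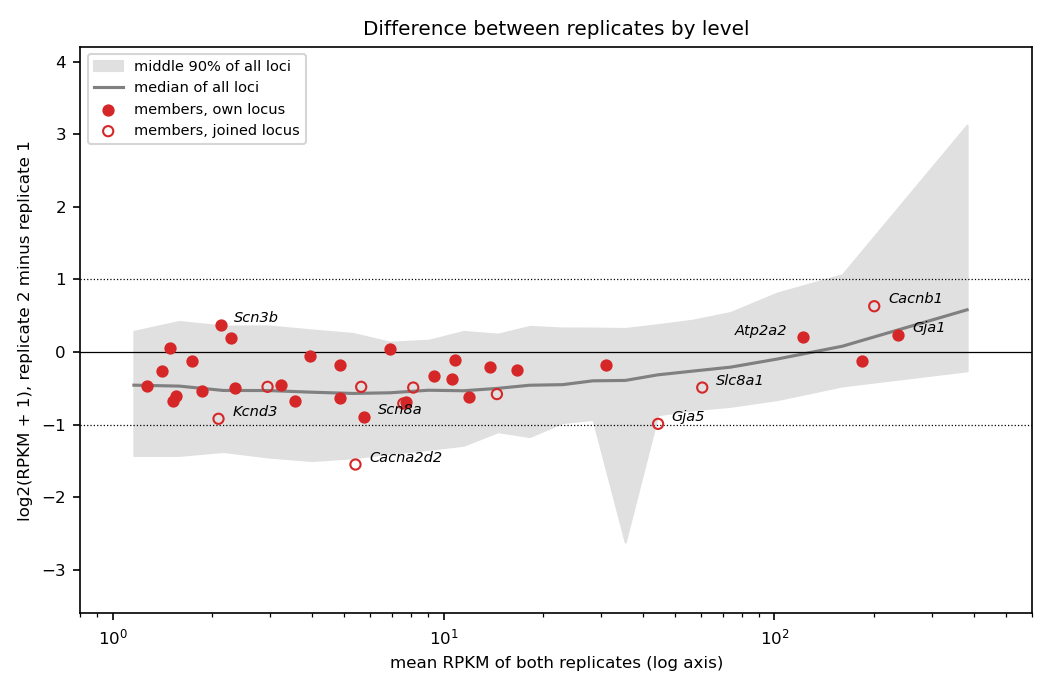
Replicate 2 minus replicate 1 in log2(RPKM + 1) (vertical) against the mean RPKM of both replicates on a log axis (horizontal) for the 38 members with a mean of 1 RPKM or more. The grey band holds the middle 90% of all loci of that level and the grey line is their median, dotted lines mark 2-fold, and open points are joined loci. Cacna2d2, at -1.55, is the member below the lower dotted line.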

How the data were processed

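Each of the 2 files gave RPKM and read counts per locus. Per the submitters' processing notes the tools named are TopHat, with no version, and the build is mm9; for the counter, filters and strand setting nothing is stated. The RPKM were deposited by the authors, and the counts deposited beside them are whole numbers that were not normalized. Because there is 1 group, no count test was run.

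Rows with the same gene identifiers were summed (34676 rows, 34624 loci). Symbols came from a name table (32642 of 37681 identifiers matched, 86.6%), gene types from GENCODE M21, and promoter windows from RefSeq on GRCm38.p6. A gene with several loci was read from the one with the fewest identifiers. Detected means 1 RPKM or more in both replicates. Differences used log2(RPKM + 1), which understates differences of low genes. A pair was called where the replicates shared a sign and their mean passed 2 SD of the log2 difference of the 500 nearest loci. Named genes are the members, and the 3 highest and the lowest of each other list; some of these list genes are not reported here. The members, lists and pairs were chosen with earlier results of these data known. The spread between replicates may be technical. The code was tested on simulated data. Python 3.11.15, pandas 2.3.3, NumPy 2.4.6, SciPy 1.17.1 and matplotlib 3.10.9 were used.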

Additional observations from a re-analysis of the deposited data

How the results depend on the processing

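No paired analysis was possible because there is only 1 group. The count of members at the minimum (36) was 23 at 3 RPKM, and that of other channel genes (44) was 68 at 0.3 RPKM and 27 at 3 RPKM. No share of all or protein-coding loci is given at those levels. At 10 RPKM 11 of the 46 members stood against 42.2% of protein-coding loci, a lower share, so the members' higher share at 1 RPKM depends on the minimum. The members' median, 4.41 RPKM over both replicates, was 6.32 over the detected members only and between 3.09 and 4.92 with either replicate left out. Members past 2-fold between replicates (1) were 2 with the median ratio set to 0, 3 in CPM, 5 with a pseudocount of 0.1, 0 over loci of 1 gene identifier and 0 with the length of replicate 1 in both, an alternative added after seeing the data. Pairs beyond the spread (11 of 26) were 7 at 3 SD, and 7 of the 15 pairs without joined loci.

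With a pseudocount of 0.1, which widens the spread, Hcn3 over Hcn2 (2.66), Cacnb3 over Cacnb4 (1.30) and Cacna2d1 over Cacna2d2 (1.36) were within it. With the length of replicate 1, Cacnb3 over Cacnb4 (1.05) was within it and Kcnd2 over Kcnd3 turned to -0.06. The cause of the first was not tested. Cacna1a over Cacna1b was 0.49 with that length, still within the spread, and had the same sign in both replicates. In CPM, which is not per length, Hcn4 over Hcn2 (1.24), Atp2a2 over Slc8a1 (1.80) and Kcna1 over Kcna2 (0.91) passed the spread, while Hcn4 over Hcn3 (0.10), Ryr2 over Ryr3 (0.56) and Kcnq1 over Kcnq3 (-0.36) changed sign. With either replicate left out, the difference ranged between -1.26 and -0.72 for Hcn4 over Hcn3, 1.04 and 1.31 for Cacnb3 over Cacnb4, 0.70 and 1.63 for Cacna2d1 over Cacna2d2, and 0.67 and 1.37 for Atp2a2 over Slc8a1, each within the spread in replicate 1 and past it in replicate 2. It changed sign for Cacna1a over Cacna1b (-0.08 to 0.45), Cacnb3 over Cacnb2 (-0.22 to 0.15), Scn8a over Scn2a (-0.22 to 0.49) and Kcnd2 over Kcnd3 (-0.40 to 0.71). The direction and call of 13 of the 26 pairs held in each alternative run for single pairs. Depth limits the low members most: the median locus between 1 and 2 RPKM rested on 18.0 reads in replicate 1 but 106 in replicate 2.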
